A study of Mus musculus with 3 samples.

Results

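Forkhead (Fox) genes encode transcription factors that share a winged-helix DNA-binding domain and are named by subfamily letters. Many of them specify tissues of the embryo, whereas others, such as FOXO1, FOXK1, FOXK2 and FOXM1, act in growth, metabolism or cell division in many tissues. The members described here were the autosomal protein-coding genes of GENCODE release M21 whose symbol is Fox followed by 1 letter and a number, with 3 genes left out by name. This rule used no measured value and gave 38 genes of the 20807 autosomal protein-coding genes, and their bodies overlapped 1079 of the 1186323 valid windows of 2 kb.

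Germinal vesicle (GV) oocytes, the fully grown stage, were assayed for H3K36me3 with a native ChIP-seq protocol for very low cell input, in which uncross-linked chromatin is digested and nucleosomes are pulled down with an antibody. All samples formed a single group of 3 replicate pools of about 280 oocytes from wildtype C57BL6/Babr mice of 25 days, and replicate 2 was made with less antibody. The labels do not say whether the pools came from separate animals, so any p-value here measures the spread between these pools, which may be technical. The study placed H3K36me3 beside H3K4me3 and H3K27me3 calls from its earlier libraries, and those calls have no replicates here.

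The replicates held 2692510 to 7888140 reads in valid windows, and 3868 to 11313 of them fell on Fox genes. The level of a gene was the mean over its windows of the value that the authors name RPKM, so that genes of different length can be compared, and a window is called for H3K36me3 when the mean of the 3 replicates is above 1. That value takes 8 reads in replicate 1 and 3 reads in replicates 2 and 3. The labelled cell type was checked against its markers. Of the oocyte genes such as Zp3 and Gdf9, 12 of 12 had a level above 1, against 3 of 8 granulosa cell genes, 1 of 6 blood and stroma genes and 52.9% of all genes. By the limma test described below, 9, 2 and 1 of these genes were called above 1, and 41.4% of all genes. The oocyte genes ranged from 1.20 to 2.93. The granulosa cell gene Nr5a2, with 2.02, and the blood and stroma gene Pecam1, with 1.91, lay within that range. H3K36me3 is a mark of transcribed gene bodies, and in growing oocytes DNA methylation is laid down where it lies. H3K27me3, the mark of Polycomb repression, and H3K4me3, a mark of gene starts, are both also known for broad domains in oocytes.

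Of the 38 Fox genes, 11 had an H3K36me3 level above 1, 24 had H3K27me3 in at least 50% of their windows, and no gene met both criteria. The share of all genes that met both was not computed, so the lack of overlap is not read as a trait of the family. The 3 genes in neither class were Foxh1, Foxp2 and Foxa3. Over all 20242 autosomal protein-coding genes with a valid window, a level above 1 was found in 52.9% and H3K27me3 in at least 50% of the windows in 27.4%. The Fox genes had shares of 28.9% and 63.2%. H3K4me3 covered at least 50% of the windows of 26 Fox genes (68.4%), against 32.2% of all genes, and 23 of these 26 belonged to the H3K27me3 class. The median level over genes was taken in each replicate and then averaged. It was 0.621 ± 0.163 (SD, n = 3) over the Fox genes and 1.10 ± 0.04 (SD, n = 3) over all genes. The median of the gene means was 0.497 over the Fox genes and 1.13 over all genes.

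**Figure D1:**
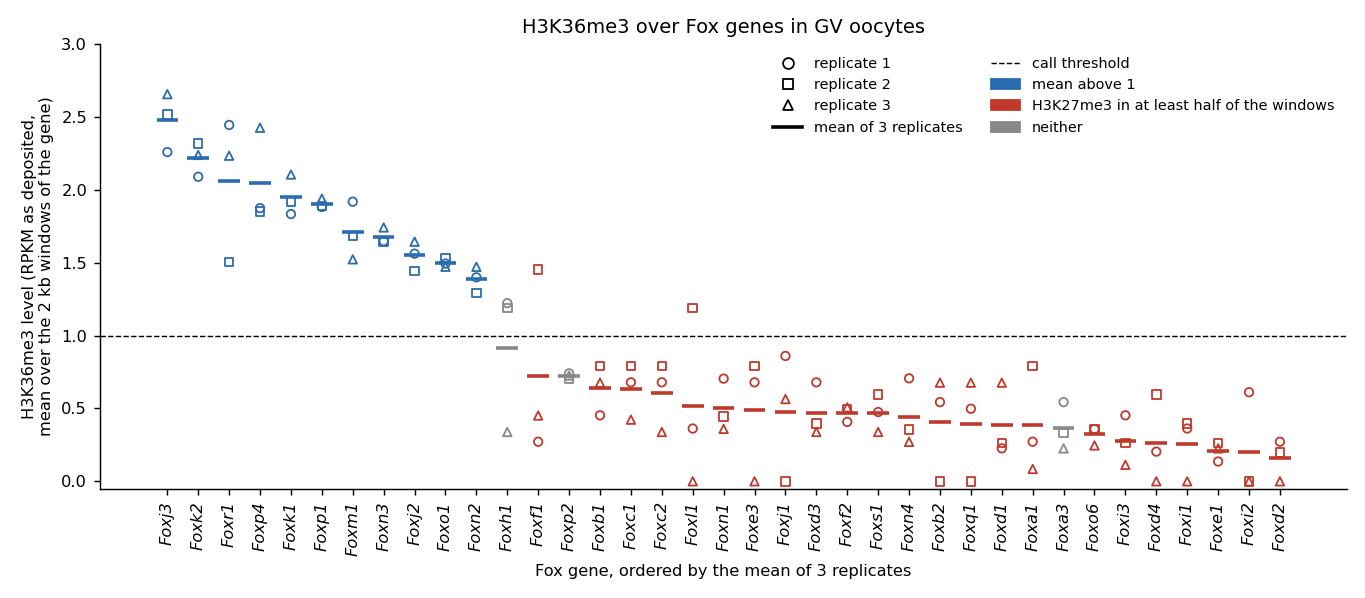
H3K36me3 level of each Fox gene (RPKM as deposited, mean over its 2 kb windows) in the 3 replicates, with the mean as a bar and genes ordered by it. The 11 genes at the left, from Foxj3 at 2.48 to Foxn2 at 1.39, lay above 1 in every replicate, and most of the other genes lay below 1 in every replicate. Of the 38 genes, 1 is not drawn.

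The start regions of 5 members are printed as examples. They were chosen because the marks at these starts differ and none of the bases lies in an annotated exon of the gene. Each sequence is the 250 bases before the RefSeq start (build GRCm38.p6), and CG dinucleotides, the sites of DNA methylation, are in capitals. Foxk2 (chr11:121259737-121259986, plus strand) and Foxj3 (chr4:119539411-119539660, plus strand) start in windows with H3K36me3 and H3K4me3. The Foxk2 window had H3K36me3 values of 2.58, 0.793 and 0.677 in replicates 1 to 3, so its call rested on replicate 1. Foxf2 (chr13:31625566-31625815, plus strand) starts in a window with H3K4me3 and H3K27me3. Foxa3 (chr7:19023540-19023789, minus strand) starts in a window with H3K4me3 alone, and Foxi1 (chr11:34208090-34208339, minus strand) in a window with H3K27me3 alone.
Foxk2: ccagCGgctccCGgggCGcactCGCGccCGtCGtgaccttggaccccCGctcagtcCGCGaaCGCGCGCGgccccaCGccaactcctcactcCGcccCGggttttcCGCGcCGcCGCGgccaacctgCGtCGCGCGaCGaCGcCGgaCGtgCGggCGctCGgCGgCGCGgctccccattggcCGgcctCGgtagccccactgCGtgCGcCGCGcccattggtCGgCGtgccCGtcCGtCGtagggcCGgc
Foxj3: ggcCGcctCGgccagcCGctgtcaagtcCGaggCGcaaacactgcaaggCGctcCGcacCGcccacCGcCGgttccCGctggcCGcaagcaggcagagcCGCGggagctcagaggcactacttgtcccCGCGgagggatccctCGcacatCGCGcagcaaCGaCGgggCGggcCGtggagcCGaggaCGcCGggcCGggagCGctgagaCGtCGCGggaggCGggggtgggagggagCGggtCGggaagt
Foxf2: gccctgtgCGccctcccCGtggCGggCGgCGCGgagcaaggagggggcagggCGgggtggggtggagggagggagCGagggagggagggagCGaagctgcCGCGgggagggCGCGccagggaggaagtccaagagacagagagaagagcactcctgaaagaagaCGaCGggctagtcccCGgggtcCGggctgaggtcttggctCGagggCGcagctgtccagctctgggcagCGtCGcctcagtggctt
Foxa3: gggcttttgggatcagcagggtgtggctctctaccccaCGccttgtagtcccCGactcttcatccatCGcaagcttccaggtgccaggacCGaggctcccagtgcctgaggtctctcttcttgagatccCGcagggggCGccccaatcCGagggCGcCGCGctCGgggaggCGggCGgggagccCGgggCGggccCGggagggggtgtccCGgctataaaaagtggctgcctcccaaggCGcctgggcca
Foxi1: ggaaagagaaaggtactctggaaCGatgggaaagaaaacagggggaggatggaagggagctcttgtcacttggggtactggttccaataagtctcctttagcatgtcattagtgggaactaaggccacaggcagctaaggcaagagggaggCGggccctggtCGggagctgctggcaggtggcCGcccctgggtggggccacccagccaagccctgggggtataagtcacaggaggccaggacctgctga
These stretches held 48, 34, 21, 18 and 4 CG dinucleotides in the order given, which is not an order of the marks. Among all matched starts the counts overlapped. They were 11 to 48 in windows with H3K36me3 and H3K4me3, 3 to 27 with H3K36me3 alone and 3 to 36 with H3K4me3 and H3K27me3. RefSeq start sequences were matched for 23 of the 38 genes (25 starts), with 3 to 48 CG dinucleotides and a median of 17, and the median over all 32851 starts was 6. The forkhead motif TGTTTAC, searched on both strands, was present in 1 of the 25 stretches, that of Foxa1, and in 3.17% of all stretches of this length.

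The class with H3K36me3 was made up of Foxj3, Foxk2, Foxr1, Foxp4, Foxk1, Foxp1, Foxm1, Foxn3, Foxj2, Foxo1 and Foxn2. Each was above 1 in all 3 replicates, and each was above the threshold level in limma's test across all genes (log2 scale with a pseudocount of 0.1, two-sided, Benjamini-Hochberg adjusted). Among all genes, 41.4% were called above and 33.1% below a level of 1. Of the Fox genes, 11 were called above, 14 below, and 13 passed in neither direction. The calls above 1 were 5 without replicate 1, the deepest, when Foxj2, Foxm1, Foxn2, Foxo1, Foxp4 and Foxr1 no longer passed. They were 9 without replicate 2 (Foxm1 and Foxn2 lost) and 9 without replicate 3 (Foxn2 and Foxr1 lost), and the calls below 1 were 9, 7 and 9 without replicates 1, 2 and 3.

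Foxj3 (ENSMUSG00000032998.16, chromosome 4, 119537004 to 119629119) had the highest mean level of the family, although Foxr1 was above it in replicate 1. Its values were 2.26, 2.52 and 2.66 in replicates 1 to 3, a mean of 2.48 ± 0.20 (SD, n = 3), which rested on 1418 reads. The log2 difference from the threshold was 1.23 with a standard error of 0.09 (limma, adjusted p = 0.00499). H3K36me3 was called in 44 of its 46 windows, and no window carried H3K27me3. FOXJ3 is known from muscle fibres and spermatogenesis.

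Foxk1 and Foxk2 encode the FOXK factors, which recruit the SIN3A corepressor and repress autophagy genes. Foxk2 (chromosome 11, 121259990 to 121309896) had 2.09, 2.32 and 2.24, a mean of 2.22 ± 0.12 (SD, n = 3), with 25 of 26 windows called. Foxk1 (chromosome 5, 142401497 to 142462011) had 1.83, 1.92 and 2.10, a mean of 1.95 ± 0.14 (SD, n = 3), with 31 of 32 windows called. Each gene thus had a single window without the mark, and neither had an H3K27me3 window. When Foxk2 was cut into 5 stretches of the same length, the level was 1.59 ± 0.29 (SD, n = 3) in the one at the start and 3.19 ± 0.61 (SD, n = 3) in the one at the end.

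The FOXP factors act in lymphocytes, heart, lung and the nervous system. Foxp4 (chromosome 17, 47867133 to 47924645, minus strand) had 1.87, 1.85 and 2.43, a mean of 2.05 ± 0.33 (SD, n = 3), with 29 of 30 windows called. Foxp1 (chromosome 6, 98925338 to 99522721, minus strand), a gene of 597 kb, had 1.88, 1.89 and 1.94, a mean of 1.90 ± 0.03 (SD, n = 3), with 266 of 299 windows called and 7283 reads. Of its windows, 133 also overlapped the annotated coding gene Gm20696. Foxp2, the other long member of this subfamily, was in neither class.

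Foxr1 (ENSMUSG00000074397.4, chromosome 9, 44433773 to 44441136, minus strand) was the only member of up to 10 kb in the H3K36me3 class. FOXR1 is a little-studied factor. Its values were 2.44, 1.51 and 2.23, a mean of 2.06 ± 0.49 (SD, n = 3), with 142 reads over 5 windows. All 5 windows were called for H3K36me3 and 4 of them also for H3K4me3. Over the 20 kb before its start the level was 0.265 ± 0.212 (SD, n = 3), with H3K4me3 in 10 of 10 windows and H3K27me3 in 5. Over the 20 kb past its end it was 1.92 ± 0.67 (SD, n = 3). The gene body was higher than the upstream side in 3 of 3 replicates.

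Foxm1, which drives mitotic transcription together with the MuvB complex, had 1.92, 1.68 and 1.52, a mean of 1.71 ± 0.20 (SD, n = 3). H3K36me3 was called in 5 of its 8 windows, all within a stretch of 10 kb inside the gene. Its first and last 2 windows carried H3K4me3, and 3 of the 8 windows overlapped other coding genes. Foxj2, a broadly expressed factor, had 1.56, 1.44 and 1.64, a mean of 1.55 ± 0.10 (SD, n = 3). Its H3K36me3 lay mainly in 8 neighbouring windows of the 3′ part, where the level was 2.27 ± 0.46 (SD, n = 3), while the 6 windows from the start carried H3K4me3. Foxj2 was the only gene of this class with H3K27me3, which was called in 2 of its 14 windows.

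Foxo1, the target of insulin and AKT signalling, had 1.49, 1.53 and 1.47, a mean of 1.50 ± 0.03 (SD, n = 3), with 35 of 43 windows called. The 20 kb before its start had a level of 0.330 ± 0.164 (SD, n = 3) and carried H3K4me3 in 10 of 10 windows. The 20 kb past its end had 0.330 ± 0.176 (SD, n = 3), with H3K4me3 in 9 of 10 windows. H3K36me3 thus lay in the gene body, between broad stretches of H3K4me3. The gene body exceeded either side by 1.17 in the mean, in 3 of 3 replicates.

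Foxn3 and Foxn2 encode FOXN factors linked to cell cycle checkpoints and growth. Foxn3 (chromosome 12, 99190078 to 99563582, minus strand) had 1.65, 1.64 and 1.74, a mean of 1.68 ± 0.06 (SD, n = 3), with 145 of 186 windows called. Foxn2 had 1.40, 1.29 and 1.47, a mean of 1.39 ± 0.09 (SD, n = 3), the lowest of the class, with 14 of 23 windows called and 3 more removed by the input filter. For Foxn2 the log2 difference from the threshold was 0.43 with a standard error of 0.08 (limma, adjusted p = 0.0178), and its call was lost without any 1 of the 3 replicates.

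The order of these levels was only partly resolved. Of the 10 pairs of neighbours in the order, 3 kept the same order in each replicate (Foxj3 above Foxk2, Foxn3 above Foxj2, and Foxo1 above Foxn2), and only Foxo1 and Foxn2 had replicate ranges that did not overlap, by 1.472 against 1.471. Foxr1 and Foxp4 differed by 0.0117 and Foxp4 was the higher one in 2 of 3 replicates. The class as a whole stood apart from the other members in replicates 1 and 3. In replicate 2 the value of Foxf1, 1.45, was above that of Foxn2, 1.29.

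**Figure D2:**
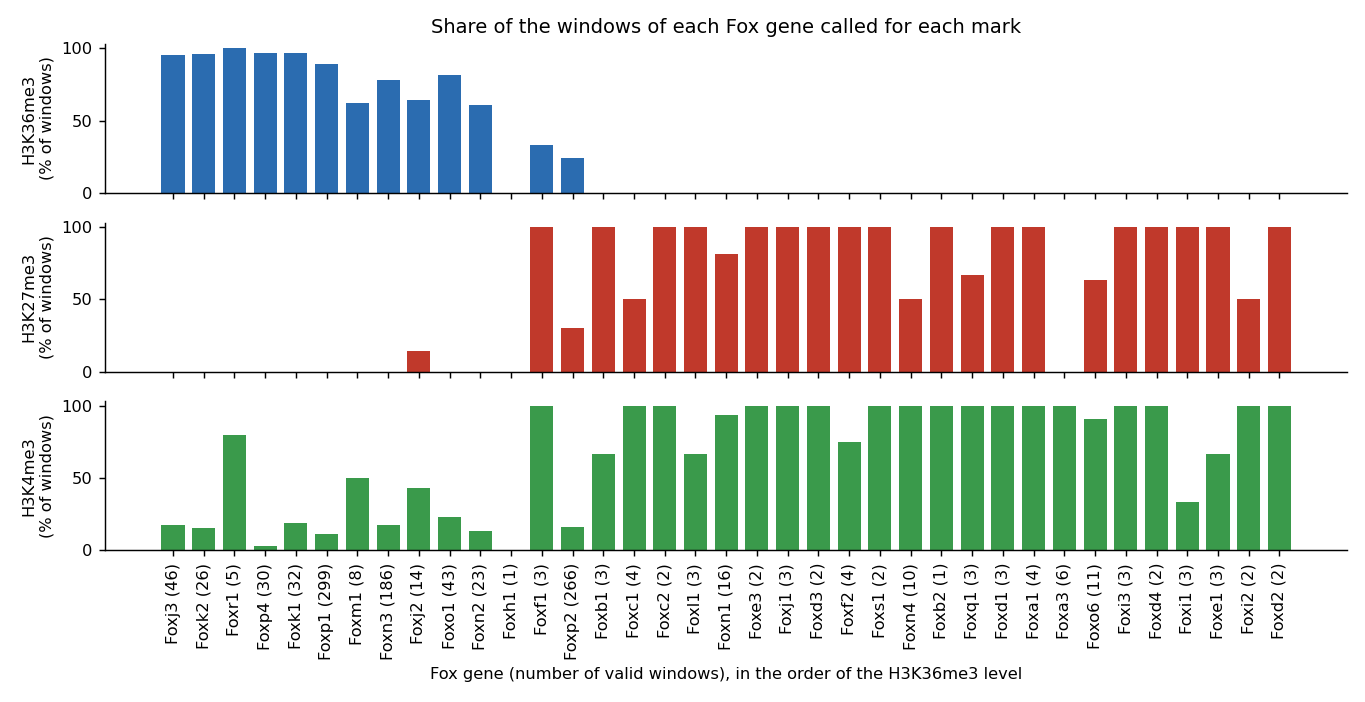
Percent of the valid windows of each Fox gene called for H3K36me3 (top), H3K27me3 (middle) and H3K4me3 (bottom), with genes in the order of the H3K36me3 level and their number of windows in brackets. H3K36me3 covers 60.9% to 100% of the windows of the first 11 genes, H3K27me3 covers at least 50% in most of the others, and H3K4me3 is present in all but Foxh1. Of the 38 genes, 1 is not drawn.

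Counted by windows, H3K36me3 was called in 62.5% of the Fox windows, H3K27me3 in 14.8% and H3K4me3 in 22.7%. In the windows of all autosomal protein-coding genes these shares were 51.6%, 26.1% and 26.4%. The window shares are set by a few long genes, since Foxp1, Foxp2 and Foxn3 together hold 751 of the 1079 windows. With each gene counted once, the mean shares were 25.8% for H3K36me3, 58.1% for H3K27me3 and 67.6% for H3K4me3. Mean shares of this kind over all genes were not computed, and the window shares of all genes are not their counterpart. Of the 674 Fox windows with H3K36me3, 608 lay in the 11 genes above.

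The H3K27me3 class held many regulators of embryonic development. Among them were Foxa1 of the endoderm, Foxb1 and Foxb2, Foxc1 and Foxc2 of mesoderm and vessels, Foxd1 to Foxd4, Foxe1 of the thyroid, Foxe3 of the lens, and Foxf1 and Foxf2 of gut and lung mesenchyme. Others were Foxi1, Foxi2 and Foxi3, Foxj1 of motile cilia, Foxl1, Foxn1 of the thymus, Foxn4 of the retina, Foxo6 of the brain, Foxq1 and Foxs1. The median of the gene means in this class was 0.426, and the highest was 0.725. H3K27me3 was called in every window of 18 of the 24 genes, and 12 genes had both H3K27me3 and H3K4me3 in every window. The class was chosen by H3K27me3 in at least 50% of the windows, and its genes had a median of 3 windows. Full coverage by H3K27me3 thus partly follows from that choice, and the matching shares over all genes were not computed. H3K36me3 was called in 1 window of the class, at the end of Foxf1.

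Most of these genes are small. Their length was 3.76 kb in the median, and the 3 replicates together gave a median of 15 reads per gene. The limma test called 12 of the 24 below a level of 1, and edgeR's quasi-likelihood test on the recovered reads called 13. Those called by limma included Foxb1, Foxd1, Foxd2, Foxd3, Foxe1, Foxf2, Foxi3, Foxn1, Foxn4, Foxo6 and Foxs1. Foxb1 passed narrowly (limma, adjusted p = 0.04998). Foxb1, Foxd3 and Foxs1 were not called by edgeR (adjusted p = 0.190, 0.142 and 0.120). Of the genes named, only Foxe1, Foxf2 and Foxo6 kept the limma call whichever replicate was left out. A replicate without any read on a gene occurred 11 times, in replicates 2 and 3 only. A count of 0 allows up to 3 reads, which is a level of 0.338 to 1.19 for these genes, so a level below that limit was not detectable there. PCR copies were not told apart from separate molecules, so intervals and limits of this kind cover counting error only.

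Within this class, the most H3K27me3 windows were found in Foxn1, Foxo6, Foxn4, Foxa1 and Foxf2. Foxn1 (chromosome 11, 78357577 to 78386558, minus strand), mutated in nude mice, had 0.704, 0.446 and 0.360, a mean of 0.503 ± 0.179 (SD, n = 3), and 13 of its 16 windows carried H3K27me3 and 15 carried H3K4me3. It was called below 1 with a log2 difference of -0.91 and a standard error of 0.20 (limma, adjusted p = 0.0263), and the call was lost without replicate 2 and without replicate 3. H3K36me3 lay on either side of the gene. The level was 1.98 ± 0.37 (SD, n = 3) over the 20 kb before it and 1.98 ± 0.36 (SD, n = 3) over the 20 kb past it, and the gene was lower than both in 3 of 3 replicates.

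Foxo6 (chromosome 4, 120267079 to 120287349, minus strand) is the FOXO gene of the brain. It had 0.358, 0.360 and 0.246, a mean of 0.321 ± 0.065 (SD, n = 3), with H3K27me3 in 7 and H3K4me3 in 10 of 11 windows. The log2 difference from the threshold was -1.40 with a standard error of 0.13 (limma, adjusted p = 0.00525), and the call was lost with the median over windows. Foxo6 and Foxo1 thus fell into opposite classes. Foxo6 lies 638 kb past the end of Foxj3.

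Foxn4, a factor of retinal progenitors, had 0.706, 0.357 and 0.271, a mean of 0.445 ± 0.231 (SD, n = 3). H3K4me3 was called in 10 of 10 windows and H3K27me3 in 5, and its start carried H3K4me3 alone. The 20 kb past its end had a level of 2.11 ± 0.06 (SD, n = 3). Foxa1, a pioneer factor of endoderm, had 0.272, 0.793 and 0.0846, a mean of 0.383 ± 0.367 (SD, n = 3), with H3K27me3 and H3K4me3 in 4 of 4 windows. It did not pass the test (limma, adjusted p = 0.0743), and its replicates spread over most of its mean. A further 8 genes without an H3K36me3 window had 3 H3K27me3 windows each.

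Levels near 0 were found in Foxd2, Foxi2 and Foxe1. Foxd2 (chromosome 4, 114906282 to 114908873, minus strand) had 0.272, 0.198 and 0, a mean of 0.157 ± 0.140 (SD, n = 3), from 5 reads in 2 windows (95% Poisson interval 1.62 to 11.7 reads). It was called below 1 by limma (adjusted p = 0.0215) and by edgeR (adjusted p = 0.0131), but not by limma without replicate 1 or without replicate 2. Foxe1 had 0.136, 0.264 and 0.226 with an adjusted p of 0.00512 (limma). Foxi2 had reads in replicate 1 only, where its value was 0.611, and it did not pass (limma, adjusted p = 0.0507).

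Both H3K36me3 and H3K27me3 windows were present in 3 members, Foxf1, Foxj2 and Foxp2, and in 23.7% of all genes. The start window of Foxj2 had all 3 marks, with H3K36me3 values of 0.815, 1.98 and 0.338 and a mean of 1.05 ± 0.85 (SD, n = 3). The last window of Foxf1 also had all 3 marks, with 0.543, 2.77 and 1.02 and a mean of 1.44 ± 1.18 (SD, n = 3). In both windows replicate 2 had by far the highest value, and without it neither mean would be above 1. Foxp2 held 17 of the 19 Fox windows with H3K36me3 and H3K27me3 together.

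Foxp2 (ENSMUSG00000029563.16, chromosome 6, 14901349 to 15441977), a gene of 541 kb linked to speech and vocal learning, had a mixed pattern. Its values were 0.741, 0.700 and 0.725, a mean of 0.722 ± 0.020 (SD, n = 3), which is 0.42 below the threshold on the log2 scale (standard error 0.07, limma, adjusted p = 0.0150). Of its 266 windows, 65 carried H3K36me3, 80 carried H3K27me3 and 43 carried H3K4me3, and 105 had no call. With the median over windows in place of the mean, and without any 1 of the replicates, Foxp2 was not called below 1.

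H3K36me3 in Foxp2 was not spread evenly along the gene. The gene was cut into 5 parts of 108 kb each. In the part at the start the level was 0.315 ± 0.097 (SD, n = 3), 1 of 50 windows was called for H3K36me3 and 26 were called for H3K27me3. In the second part it was 1.13 ± 0.06 (SD, n = 3), with 30 of 54 windows called. The next parts had 0.599 ± 0.036 and 0.581 ± 0.022 (SD, n = 3). The last part had 0.954 ± 0.139 (SD, n = 3), with 22 windows called and the longest run of H3K36me3 in the gene, 18 kb at 509 to 527 kb from the start. The order of the first 2 parts was the same in 3 of 3 replicates. Windows with H3K36me3 and H3K27me3 had a level of 1.43 ± 0.23 (SD, n = 3) and those with H3K36me3 alone 1.49 ± 0.15 (SD, n = 3). Both sets were called by a mean H3K36me3 value above 1, so their levels were bound to be alike and this comparison cannot show whether H3K27me3 goes with another level.

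Foxp1 and Foxn3 were compared along their bodies in the same way. In Foxp1 the level stayed between 1.71 ± 0.04 and 2.23 ± 0.11 (SD, n = 3) in all 5 parts. A block of 4 windows at 489 to 497 kb from its start had a level of 0.572 ± 0.094 (SD, n = 3) and carried H3K4me3, and 6 annotated transcript starts lay in it. A RefSeq start in that block, 494 kb into the gene, has 34 CG dinucleotides in the 250 bases before it, against 3 at the RefSeq start 256 kb into the gene, which lies in a window with H3K36me3 alone. In Foxn3 the level was 1.03 ± 0.13 (SD, n = 3) in the first part and 2.22 ± 0.23 (SD, n = 3) in part 4. The longest run of H3K36me3 in the family, 164 kb, began 204 kb from the start of Foxn3, within a block of 9 H3K4me3 windows that holds an annotated start at 207 kb.

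**Figure D3:**
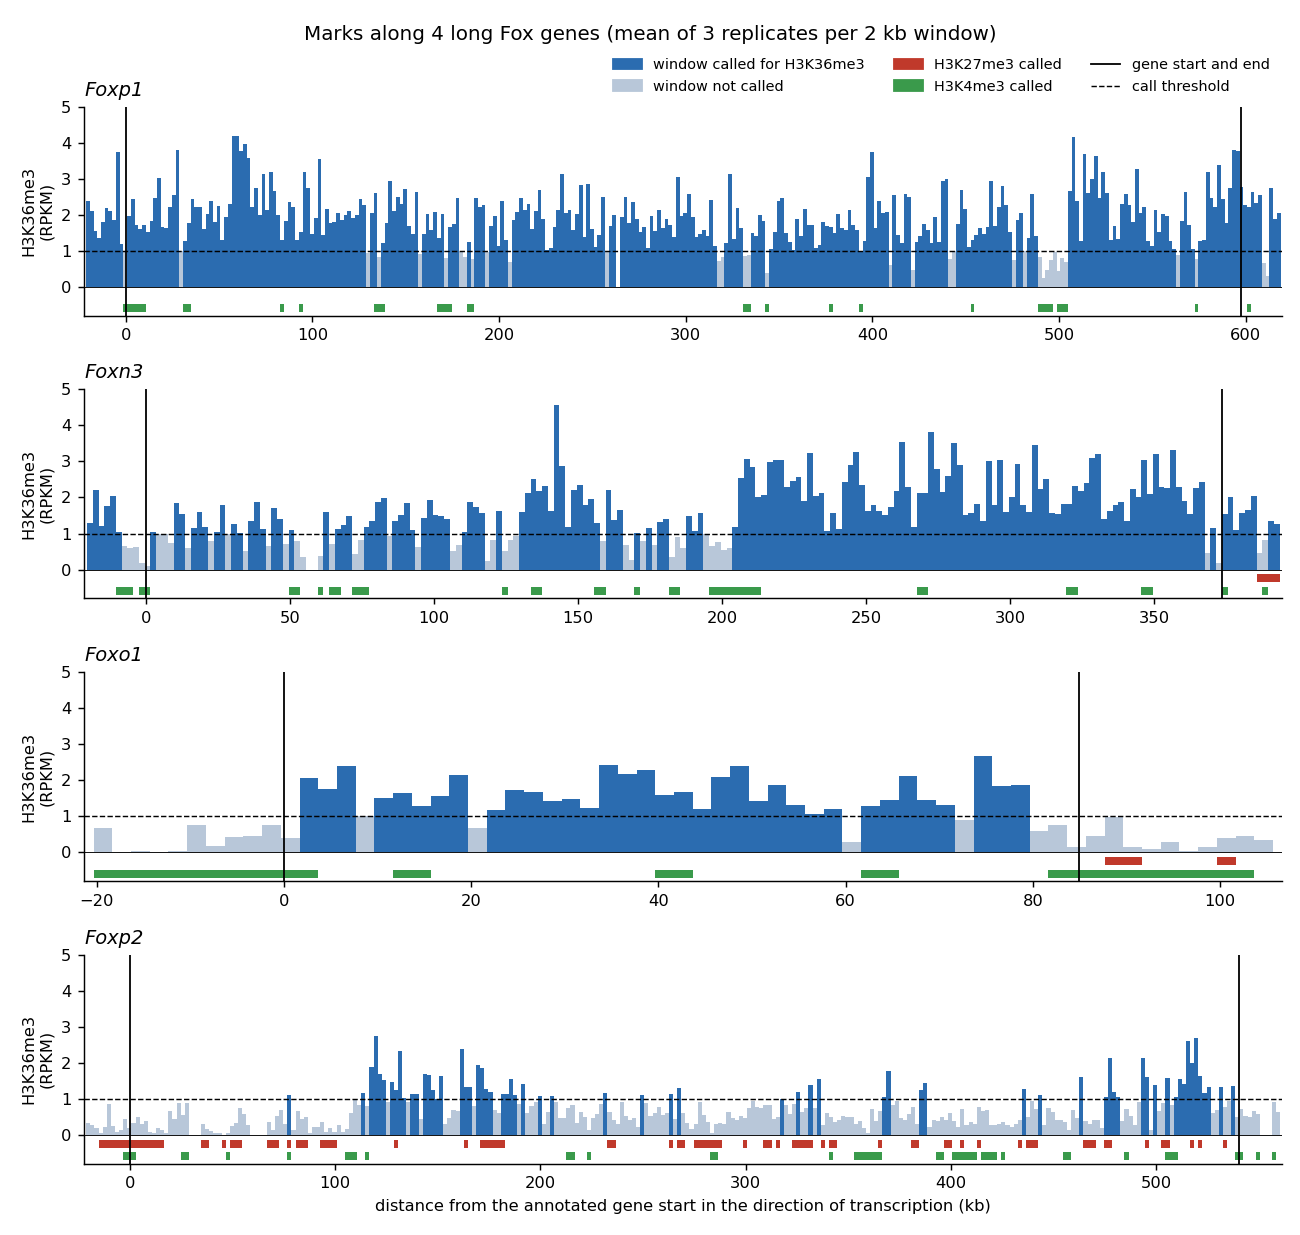
Marks along Foxp1, Foxn3, Foxo1 and Foxp2 and 20 kb on either side, by distance in kb from the gene start. Bars give the H3K36me3 value of each 2 kb window (RPKM as deposited, mean of 3 replicates, dark where called), and the strips below give the H3K27me3 and H3K4me3 calls. H3K36me3 is called in 266 of 299 windows of Foxp1, 145 of 186 of Foxn3, with its longest run past 204 kb, 35 of 43 of Foxo1 and 65 of 266 of Foxp2.

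Over the 9 members with at least 20 windows and an H3K36me3 window, H3K4me3 was called in 33 of the 102 windows at or beside an annotated start (32.4%) and in 107 of the 849 others (12.6%). Foxp4 had 0 of 8 such windows called, and its start window carried H3K36me3 alone, with values of 1.09, 0.793 and 2.71.

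The start windows were then compared across the family. H3K27me3 was called at 25 of the 38 Fox starts, against 32.7% of all gene starts with a valid window. H3K4me3 was called at 35 starts, against 78.3% of all starts, and H3K36me3 at 6, against 22.9%. The count for H3K36me3 was 10 when any annotated start of a gene counted and 11 when the windows beside the start counted. The combination of H3K4me3 and H3K27me3 was present at 22 of the 24 starts of the H3K27me3 class. The exceptions were Foxi1 with H3K27me3 alone and Foxn4 with H3K4me3 alone. The class was chosen by H3K27me3 over its windows, so H3K27me3 at its starts largely follows from that choice. Among all genes, 4955 of the 6540 starts with H3K27me3 also carried H3K4me3 without H3K36me3. In the H3K36me3 class, 10 of 11 starts carried H3K4me3 and 6 of 11 carried H3K36me3. Of these 6 start windows, only that of Foxr1 had an H3K36me3 value above 1 in each replicate (1.77, 2.38 and 2.37).

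The CG content of the starts overlapped between the classes. The 2 kb start window held a median of 128 CG dinucleotides in the H3K36me3 class (16 to 221) and of 106.5 in the H3K27me3 class (21 to 256), and the median over all genes was 57. Over all genes, starts with H3K4me3 and H3K27me3 held a median of 59 and those with H3K36me3 and H3K4me3 a median of 79. The CG-poorest starts were those of Foxj3 with 16, Foxi1 with 21, Foxn1 with 25 and Foxe3 with 26. The value for Foxj3 belongs to its outermost annotated start, and the CG-rich RefSeq start printed above lies 2.66 kb inside the gene.

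H3K27me3 at the start formed runs that were longer than the gene in most members with the mark there, but not in Foxj2, Foxn1 and Foxp2. The run of neighbouring H3K27me3 windows that holds the start had a median of 36 kb over the 25 Fox starts with the mark, with quartiles of 20 and 46 kb, and a median of 20 kb over the 6540 such starts of all genes. The longest was the run of 132 kb that holds the starts of both Foxd2 and Foxe3, followed by Foxi1 with 104 kb, Foxb1 with 98 kb and Foxf2 with 92 kb. A run that holds the starts of a pair of genes counts for each of them, as for Foxd2 with Foxe3 and for Foxc2 with Foxl1. The shortest were Foxi2 with 4 kb, Foxj2 and Foxq1 with 6 kb each and Foxd4 with 8 kb. Of the 24 genes of the class, 10 had no H3K36me3 window within 20 kb on either side, and the matching share over all genes was not computed.

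Several Fox genes lie next to each other. On chromosome 13, Foxq1, Foxf2 and Foxc1 span 256 kb (31556134 to 31812476), and 113 of the 128 windows of this span carried H3K27me3, 49 carried H3K4me3 and 3 carried H3K36me3. The level over the span was 0.352 ± 0.089 (SD, n = 3), and between the genes it was 0.337 ± 0.096 (SD, n = 3). Foxq1 had 0.498, 0 and 0.677, Foxf2 had 0.407, 0.495 and 0.508, and Foxc1 had 0.679, 0.793 and 0.423. Of these, Foxf2 was called below 1 with a log2 difference of -0.95 and a standard error of 0.10 (limma, adjusted p = 0.00568).

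H3K36me3 took over at the right edge of this span. The 20 kb past Foxc1 had a level of 2.12 ± 0.13 (SD, n = 3) with 10 of 10 windows called for H3K36me3, and Foxc1 was lower in 3 of 3 replicates. This stretch runs into Gmds, an enzyme gene of GDP-fucose synthesis, which had 234 of 259 windows with H3K36me3 and none with H3K27me3.

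On chromosome 8, Foxf1, Foxc2 and Foxl1 span 46.3 kb (121084386 to 121130644). H3K27me3 was called in 8 of the 8 windows of the genes and in 9 of the 16 windows between them, where the gene Mthfsd lies and 3 windows carried H3K36me3. Foxf1 had 0.272, 1.45 and 0.451, Foxc2 had 0.679, 0.793 and 0.338, and Foxl1 had 0.362, 1.19 and 0. None of the 3 passed the test (limma, adjusted p = 0.270, 0.0789 and 0.189). In Foxf1 and Foxl1 replicate 2 was the high one, by 7 reads in the last window of Foxf1 and 6 reads in the middle window of Foxl1. Replicate 2 is the one made with less antibody, and the part of the antibody was not tested. All 8 windows also overlap the long annotated coding gene Gm20388.

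**Figure D4:**
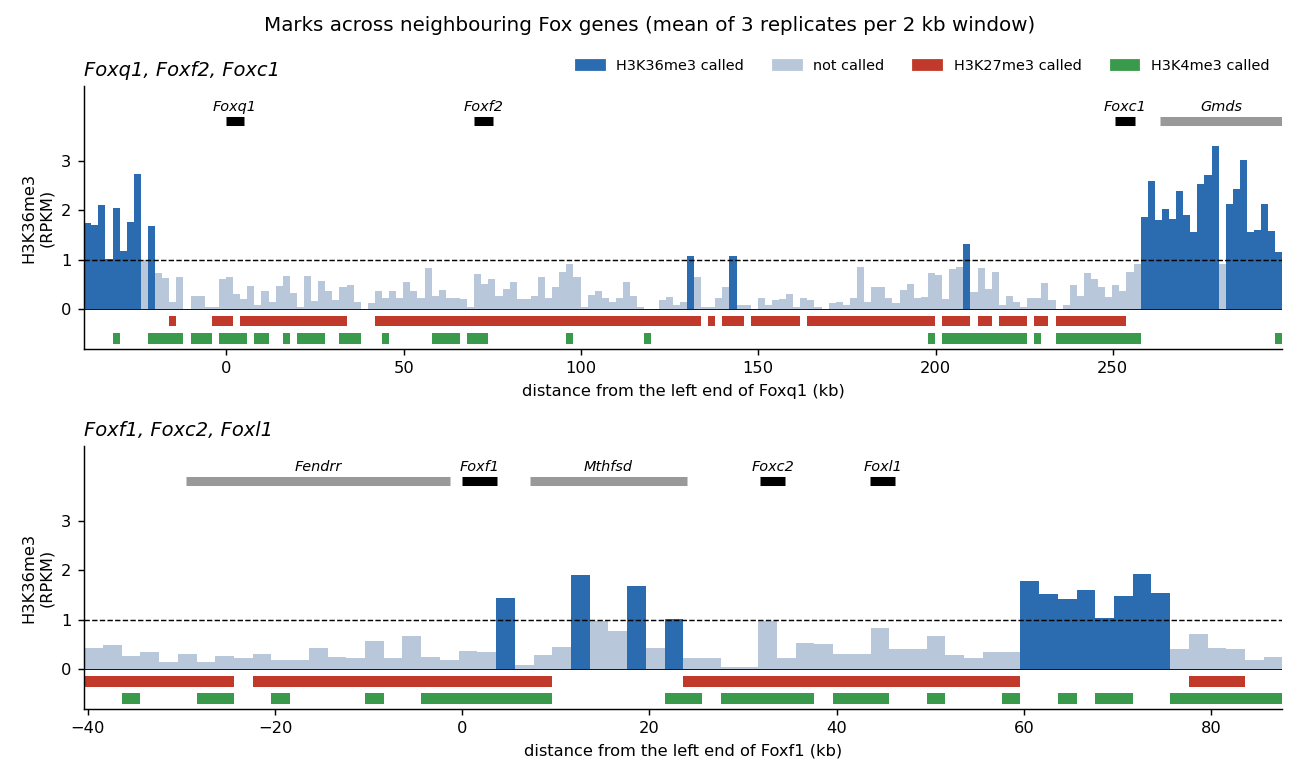
Marks across the neighbouring Fox genes of chromosome 13 (top) and chromosome 8 (bottom) and 40 kb on either side, by distance in kb from the left end of the first gene. Bars give the H3K36me3 value of each 2 kb window (RPKM as deposited, mean of 3 replicates), strips give the H3K27me3 and H3K4me3 calls, and the dashed line is the call threshold. H3K27me3 covers 113 of 128 windows from Foxq1 to Foxc1, and H3K36me3 covers the 20 kb past Foxc1.

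The 2 remaining members were in neither class. Foxa3, a factor of liver and other endoderm, had 0.543, 0.330 and 0.226, a mean of 0.366 ± 0.162 (SD, n = 3), and H3K4me3 in 6 of 6 windows with no H3K27me3 and no H3K36me3 (limma, adjusted p = 0.0169 for a level below 1). Its call was lost without replicate 2 and without replicate 3. The 20 kb before it had a level of 2.26 ± 0.30 (SD, n = 3) with 9 of 10 windows called for H3K36me3. Foxh1, the SMAD partner in Nodal signalling, had a single valid window without any call and 13 reads (95% Poisson interval 6.92 to 22.2). Its values of 1.22, 1.19 and 0.338 lay on either side of the threshold (limma, adjusted p = 0.573), and the window is shared with another coding gene, so the state of Foxh1 was not resolved.

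Gene length went with the class. Of the 23 Fox genes of up to 10 kb, 1 had a level above 1 and 21 were in the H3K27me3 class, and of the 15 longer ones 10 had a level above 1. Among all genes of up to 10 kb, 36.5% had a level above 1 and 32.4% had H3K27me3 in at least 50% of their windows. Among all longer genes 61.3% had a level above 1. All 13 Fox genes made of a single exon block were in the H3K27me3 class, but the share among all genes of a single exon block was not computed. The share above 1 was 66.7% among the long Fox genes and 4.35% among the short ones. No test of these shares was made, and length and function cannot be told apart within the family.

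The family was also set beside other transcription factor genes. Of 39 Hox genes, which pattern the body axis, 0 had a level above 1, 97.4% had H3K27me3 in at least 50% of their windows and 100% had H3K4me3, with a median level of 0.312 ± 0.077 (SD, n = 3). Of 346 zinc finger genes named Zfp, 60.1% had a level above 1 and 14.2% had H3K27me3. Of the Fox genes of up to 10 kb, 91.3% had H3K27me3 in at least 50% of their windows. Of those over 10 kb, 3 of 15 had it, and among all genes over 10 kb the share was 24.9%.

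**Figure D5:**
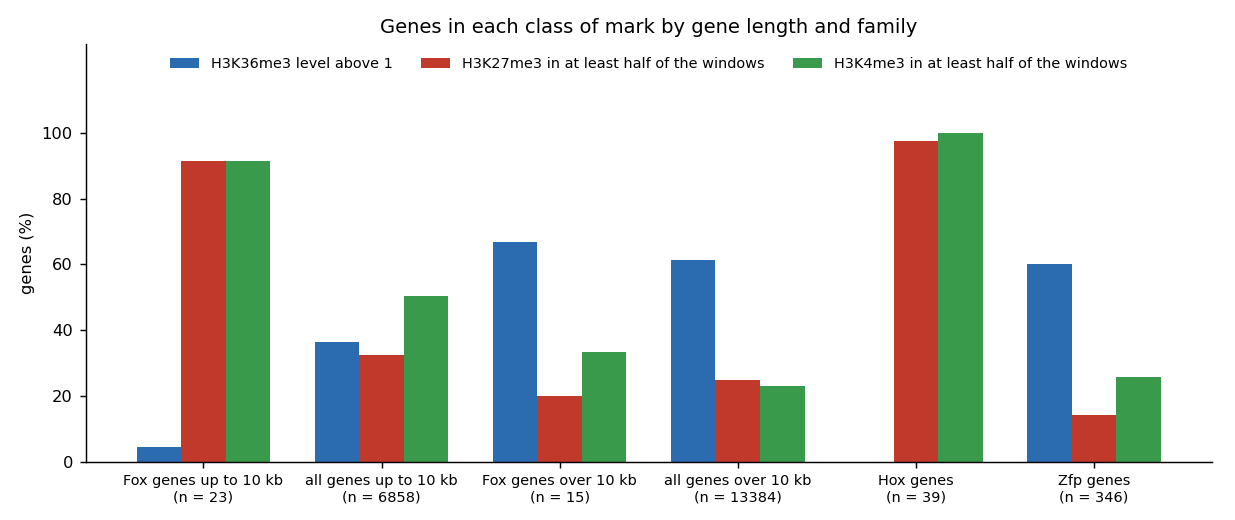
Percent of genes with an H3K36me3 level above 1, with H3K27me3 in at least 50% of the windows and with H3K4me3 in at least 50% of the windows, for Fox genes and all autosomal protein-coding genes of up to or over 10 kb, and for Hox and Zfp genes. Among Fox genes of up to 10 kb, 4.35% were above 1 and 91.3% had H3K27me3, and 66.7% of the longer ones were above 1.

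Partners and targets of the Fox factors were described in lists, whose counts stand beside the shares over all genes of 52.9% with a level above 1 and, by limma, 41.4% called above and 33.1% called below. For the FOXK and FOXP factors, 13 of 13 listed partner genes had a level above 1, and limma called 12 above and 0 below the threshold. None of the 13 had an H3K27me3 window, and the share of all genes without such a window was not computed. The highest were Asxl1 with 2.73 ± 0.17 and Bap1 with 2.72 ± 0.35 (SD, n = 3), subunits of the deubiquitinase that acts with FOXK. The lowest were Dvl1 with 1.62 ± 0.23 and the deacetylase gene Hdac1 with 1.54 ± 0.39 (SD, n = 3), and Hdac1 did not pass (limma, adjusted p = 0.0527).

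Of the MuvB complex and the mitotic targets of FOXM1, 14 of 15 genes had a level above 1 (52.9% of all genes), and limma called these 14 above (41.4% of all genes). Birc5, which encodes survivin, had 3.45 ± 0.78 and the phosphatase gene Cdc25b 2.85 ± 0.26 (SD, n = 3). The lowest were Cdk1 with 1.69 ± 0.10 and Aurkb with 0.660 ± 0.144 (SD, n = 3). Aurkb, the kinase of the chromosomal passenger complex, was the one gene called below the threshold (limma, adjusted p = 0.0392).

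Of 26 genes that regulate FOXO factors or are their targets, 19 had a level above 1 (52.9% of all genes), and limma called 19 above and 3 below (41.4% and 33.1% of all genes). The acetyltransferase gene Ep300 had 2.55 ± 0.16 and the 14-3-3 gene Ywhae 2.46 ± 0.25 (SD, n = 3). The lowest were Irs1, an adaptor of the insulin receptor, with 0.457, 0.383 and 0.0790, and the stress gene Gadd45a, with 0.272, 0 and 0.508. Of this pair, Irs1 was called below (limma, adjusted p = 0.0370) and Gadd45a was not (limma, adjusted p = 0.0577).

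The lists around FOXH1, FOXJ1 and the Groucho corepressors held genes on either side of the threshold, as did all genes, of which 52.9% had a level above 1 and 41.4% and 33.1% were called above and below. Of 13 Nodal pathway genes, 8 had a level above 1, with 5 called above and 2 below. The signal transducers Smad3 and Smad2 had 2.79 ± 0.30 and 1.98 ± 0.02 (SD, n = 3), whereas the coreceptor gene Tdgf1 and the antagonist gene Lefty1 had 0.265 ± 0.212 and 0.264 ± 0.364 (SD, n = 3) and H3K27me3 in every window. Lefty1 did not pass (limma, adjusted p = 0.0618). Of 14 motile cilium genes, 6 had a level above 1, with 4 called above and 5 below. The dynein genes Dnah9 and Dnah5 had 2.64 ± 0.20 and 2.50 ± 0.19 (SD, n = 3), and Dnaic1 and Tekt1 had 0.407 ± 0.068 and 0.394 ± 0.211 (SD, n = 3). Of 6 Groucho corepressor genes, 4 had a level above 1, from Tle4 with 2.12 ± 0.15 and Tle6 with 2.02 ± 1.00 (SD, n = 3) down to Aes with 0.498 ± 0.171 and Tle3 with 0.275 ± 0.031 (SD, n = 3), and limma called 3 above and 2 below. Tle6 was not among those called (limma, adjusted p = 0.129).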

How the data were processed

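After trimming, the authors aligned reads with Bowtie2 2.2.9 (build GRCm38), quantified 2 kb windows in SeqMonk and dropped those whose input signal was very low or very high. The deposited RPKM values are a linear signal per window and replicate, without pooling. They were whole multiples of the value of 1 read (0.136, 0.396 and 0.338 in replicates 1 to 3, 100% of values whole within 0.01 reads), and the reads were recovered from these steps. They scale more like CPM than RPKM, so a level of 1 is a threshold on the authors' own scale. A second deposited table names the marks called in each window, and its H3K36me3 call differed from a mean above 1 in 0 windows. H3K4me3 and H3K27me3 calls come from earlier libraries of the same laboratory. Whether duplicates were removed is not given in the sources used here. The input filter removed at least 1 window of 5 Fox genes.

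A window belonged to each gene of GENCODE release M21 that it overlaps, and 10 Fox genes shared windows with another coding gene. Gene levels (mean over windows) were tested against 1 with limma 3.58.1 in R 4.3.3, as log2 of the level plus 0.1, over all 20242 genes at a two-sided adjusted p of 0.05. EdgeR 4.0.16 (quasi-likelihood, recovered reads) was an alternative. Both were tested on simulated data. Differences along or beside a gene were not tested and are given with their SD or their direction in each replicate (an exact sign-flip test of 3 replicates cannot go below 0.25). Members with a level above 1, those nearest to 1, those with most H3K27me3 or H3K4me3 windows, those with both H3K36me3 and H3K27me3 and the 2 groups of neighbours were named with values in each replicate, and the highest 2 and lowest 2 of each list of partners. The 17 genes with H3K4me3 in every window tie, so no 6 of them could be ranked, and those that fall under another part of the rule are named. The values of Foxd2, Foxe1, Foxi2 and Foxa3 and the genes Gm20696, Gm20388, Mthfsd and Gmds fall outside the rule and were chosen after their values were seen. Of the symbols in the lists, 4 newer names (Cripto, Dnai1, Dnai2, Tle5) had no match in this annotation. The members and lists were chosen with earlier results of these data known. The values of 1 member are not reported here, and it stays in the counts. Sequences come from RefSeq.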

Additional observations from a re-analysis of the deposited data

How the results depend on the processing

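Of 74 recomputed values, 60 stayed close to the main value and 14 moved. Close means within 1.5 times for counts and run lengths and within the replicate SD for the median level. For shares of windows it means within the 95% Wilson interval. The count of Fox genes with a level above 1 was 11 and remained between 11 and 12 without any 1 replicate, 11 when each replicate had to be above 1, 9 at a threshold of 1.5 and 4 at a threshold of 2. The calls of limma above 1 were 11, and fell to 7 with the median over windows and to between 5 and 9 without any 1 replicate. The calls below 1 were 14, and fell to 9 with the median over windows and to between 7 and 9 without any 1 replicate. Each of these fits without a replicate has fewer samples, and pseudocounts of 0.01 and 0.5 gave 12 and 19 calls below. With edgeR on recovered reads 15 genes were called below, 11 of them shared with limma. The share of Fox windows with H3K36me3 was 62.5%, and between 58.9% and 62.7% without any 1 replicate. With each gene counted once the shares were 25.8% for H3K36me3, 58.1% for H3K27me3 and 67.6% for H3K4me3, since this weights short genes more. They have no counterpart over all genes here. H3K36me3 was present at 10 Fox genes when any annotated start counted and at 11 when the windows beside the start counted, against 6 at the start window. The Nodal list had 5 genes above a threshold of 1.5. The median level was between 0.558 and 0.713 without any 1 replicate. No paired analysis was possible because all samples belong to 1 group. Depth limits the short genes, of which 9 rested on 1 or 2 windows.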
